A study of Homo sapiens with 14 samples.

Results

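The HOX genes of IMR90, primary human fetal lung fibroblasts, were followed through passaging into senescence, treatment with a small molecule and knockdown of a chromatin protein. Members were all protein-coding genes whose symbol is HOXA, HOXB, HOXC or HOXD followed by a number, without their antisense genes. There were 39 of them among the 57791 genes of the old and young tables. HOXA held 11 genes on chromosome 7 (minus strand, GRCh37, from 27132612 to 27239710), HOXB held 10 on chromosome 17 (minus strand, from 46605888 to 46806112), HOXC held 9 on chromosome 12 (plus strand, from 54332615 to 54449814) and HOXD held 9 on chromosome 2 (plus strand, from 176957449 to 177055635).

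HOX genes encode homeodomain transcription factors that give cells their position along the head-to-tail axis of the embryo. Within a cluster they lie in the order of that axis, so that genes at the 3′ end (paralog group 1) are used in front and genes at the 5′ end (paralog group 13) at the rear. Polycomb complexes keep unused members silent, retinoic acid opens clusters from the 3′ end, and adult fibroblasts keep a HOX pattern that marks the part of the body they came from. HOXA5 and HOXB5 are known for their part in building the lung mesenchyme. Paralog groups 1 to 3 are called anterior here (8 members), groups 4 to 8 central (15) and groups 9 to 13 posterior (16).

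The samples were poly(A)-selected RNA libraries of 7 groups, all of IMR90 cells. I79 and I10 are isolates of IMR90, each taken young (low passage, proliferating) and old (high passage, replicatively senescent). I79 ICM was low-passage I79 treated with inflachromene, a binder of the chromatin proteins HMGB1 and HMGB2, at a dose and time that the labels do not give. HMGB2 KD was an siRNA knockdown of HMGB2, and WT its wild-type partner, of an isolate that the labels do not name and with no word on a control siRNA. The titles list 2 replicates a group, but the old and young groups were read from 1 table each, so they carry no SD. No source used here ties replicates to separate cultures, so p-values for HMGB2 KD measure only the spread between these samples, which may be technical.

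Total counts ran from 14598277 to 20055600 in the old and young columns, from 33561766 to 41168932 in the WT and HMGB2 KD libraries, and were 13290131 and 10971132 in the ICM libraries. The labels were checked on known genes. The WT libraries had 27.1 and 27.3 CPM (counts per 1000000 counts) of HMGB2 and the knockdown libraries 3.22 and 3.64, and all 7 senescence genes of a fixed list passed the test between old and young. The 10 fibroblast markers were present throughout, with a summed level per length of 5806 to 21248. That sum was 0.651 to 10.6 over the 8 epithelial markers, of which KRT14, SFTPC and NKX2-1 were at 0 in all columns. It was 0.351 to 1.24 over the 4 endothelial markers listed. It was 27.1 to 180 over 5 immune markers, with CD3E at 0 in all columns, and 0.26 to 31.9 over 5 mesothelial and smooth muscle markers, with the Wilms tumour gene WT1 at 0 in all columns. From young to old in I79 and in I10, the immune sum went from 27.1 to 180 and from 29.4 to 92.1, the mesothelial and smooth muscle sum from 14.3 to 2.15 and from 12.6 to 1.98, and the epithelial sum from 4.58 to 2.23 and from 10.6 to 1.83. The mesothelial and smooth muscle sum was 30.8 and 31.9 in the ICM libraries and at most 0.42 in WT. The part of these markers in the HOX results was not tested. In bulk RNA, fewer cells that use a gene and less RNA per cell cannot be told apart.

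The members resemble each other most in the homeobox, the stretch that encodes the DNA-binding homeodomain. HOXB6 and HOXC6 are shown, since they are paralogs whose values with age lay far apart (log2 fold changes 0.15 and -2.66), and near-identical members could share reads. Each line holds 60 bases of the most read coding transcript (GENCODE, GRCh37), placed by the codons of the recognition helix on the sense strand, and capitals mark bases identical in both genes.
HOXB6: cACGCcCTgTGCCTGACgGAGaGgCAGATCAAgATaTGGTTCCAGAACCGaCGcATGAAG
HOXC6: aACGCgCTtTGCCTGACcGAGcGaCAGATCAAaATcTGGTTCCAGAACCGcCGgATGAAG
Of the 60 bases, 50 were identical in both, and the differences were spread along the stretch. Between the most read coding transcripts of the members, 1 a gene, the longest run of identical bases was 62 bases, in HOXB3 and HOXD3, followed by 51 bases in HOXB6 and HOXB7. Over all transcripts, neighbours share longer stretches where their exons overlap on the same strand, over 16.6% of the exon bases of HOXB6 with HOXB3 and 18.2% of those of HOXD10 with HOXD11.

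Sharing with other genes at the same place was larger for some members. Of the 50-base words of the main HOXA4 transcript, 52.9% also lay in a readthrough gene (ENSG00000273433), and 66.4% of those of HOXC5 lay in readthrough genes of its cluster. On the opposite strand, the antisense gene HOXA-AS3 covered 62.5% of the exon bases of HOXA7 and 39.3% of those of HOXA6. HOXA5, HOXB7, HOXB8 and HOXC8 overlapped no other gene's exons. Whether strand was used in counting is not stated, so reads of HOXA7 or HOXA6 and of HOXA-AS3 cannot be told apart.

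HOXA5 was the called member with the highest level, so the 200 bases before the start of its main transcript are shown, from GRCh37 at chr7:27183301-27183500 on the minus strand. Capitals mark each CpG.
HOXA5: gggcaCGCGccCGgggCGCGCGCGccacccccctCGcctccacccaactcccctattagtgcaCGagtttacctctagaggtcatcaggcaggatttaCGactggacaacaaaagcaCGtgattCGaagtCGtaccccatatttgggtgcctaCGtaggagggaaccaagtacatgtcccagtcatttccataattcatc
The window held 14 CpG, against a median of 15 over the windows of 19488 protein-coding genes, and 56% of its bases were G or C, against a median of 63.5%.

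Letters of some known motifs were searched on both strands in such windows of 38 members (HOXA13 was not used here). TGATNNAT, the form bound by HOX proteins together with PBX cofactors, was in 7 of them (18.4%), against 3.41% of the 19488 windows. CCAAT was in 26 of 38 (68.4%) against 29.6%, and GGGCGG, the GC box, in 12 (31.6%) against 53.1%. TATAAA was in 7 (18.4%) against 8.02%. For the retinoic acid response element with a spacer of 5 bases, only an exact direct repeat was searched. That form was in none of the 38 and in none of the 19488. With no match in any window, this search cannot compare HOX windows with the rest. Other forms of the element were not searched. The letters of these motifs do not contain one another, and a match is a description of the window only.

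**Figure D1:**
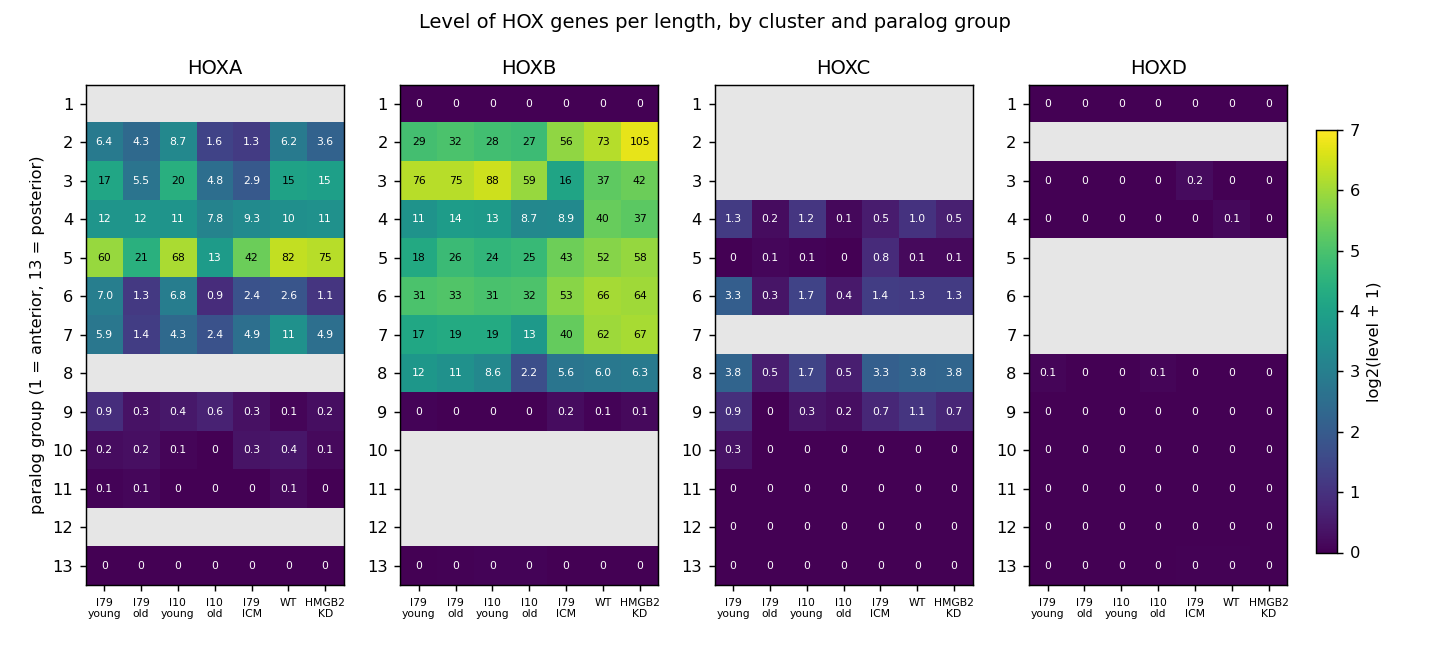
Level per length of 38 HOX genes in the 7 groups (columns), one panel a cluster, with paralog groups 1 to 13 as rows. Colour gives log2(level + 1), the number in a cell is the level, and grey rows have no gene or none shown. High levels lie in groups 2 to 8 of HOXA and HOXB, and HOXD is dark throughout.

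Levels per length were TPM, the length-scaled share of a library's transcripts, in the old and young tables, and counts per kilobase of exon scaled to the same total in the other tables. The kinds of table were made in different ways, so levels are compared between genes of a group and not between kinds of table. The level of a group with 2 libraries was their mean. A level of at least 1 was reached by 17 members in young and 14 in old I79, 17 in young and 13 in old I10, 16 in I79 ICM, 18 in WT and 16 in HMGB2 KD. The 18 members that reached it in some group included HOXA2 to HOXA7, HOXB2 to HOXB8, HOXC4, HOXC6, HOXC8 and HOXC9. The 13 members at or above 1 in all 7 groups included HOXA2 to HOXA5, HOXA7 and HOXB2 to HOXB8. Some means of at least 1 held a library below 1. The 2 libraries stood at 2.04 and 0.574 for HOXA2 in I79 ICM and at 1.49 and 0.560 for HOXC4 in WT. For HOXA6 in HMGB2 KD they stood at 1.52 and 0.724.

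The pattern was that of the front and middle of the clusters. All 5 anterior members with a level of at least 1 (HOXA2, HOXA3, HOXB2 and HOXB3 among them) kept it in all groups, by the group's mean. Of the 16 posterior members only HOXC9 reached 1, at a mean of 1.10 in WT. HOXB1, at the 3′ end of its cluster and known for patterning the hindbrain, had 0 counts in all 10 columns. So did 9 other members, among them HOXA13, HOXC11, HOXC12 and HOXC13.

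HOXD was close to silent. Its highest count in any of the 10 columns was 2, for HOXD4 in WT replicate 2, and its share of the summed HOX level was at most 0.0365% in the old and young columns. A count of 0 allows up to 3 counts, or 0.192 CPM in the shallowest old or young column. In ICM replicate 2, the shallowest of all, the limit is 0.273 CPM, and in the deepest library 0.0752 CPM. HOXA9 and HOXA10, next to the used part of HOXA, stood at 9 and 3 counts and at 4 and 4 counts in young and old I79, and at 6 and 5 and at 1 and 0 in young and old I10. Both lay below a level of 1 in all groups.

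HOXB3 had the highest level of all members in the 4 old and young columns, at 75.6 and 74.9 in young and old I79 and at 88.0 and 59.2 in young and old I10. HOXA5 came next in the young columns, with 60.1 in I79 and 68.3 in I10, and stood behind 4 HOXB genes in the old ones. HOXC8 led its cluster in I79 young at 3.77. In WT, by the length of all exons, HOXA5 led with 77.4 and 85.8 in the 2 libraries, ahead of HOXB2 with 73.6 and 73.0. The libraries of these neighbours in order did not overlap (81.6 ± 5.90 and 73.3 ± 0.420, SD, n = 2), while those of HOXB6 and HOXB7 (65.6 ± 4.95 and 61.8 ± 1.68, SD, n = 2) did. The order in WT and ICM depends on the length used. All exons of HOXB2 cover 2456 bases and its longest coding transcript 1682, against 1720 and 1670 for HOXA5. HOXB2 had 1355 and 1387 counts in WT and HOXA5 999 and 1142, so the coding length puts HOXB2 ahead. For HOXB3 the lengths are 7425 and 4208. In the ICM libraries HOXB2 (55.8 ± 2.70, SD, n = 2) and HOXB6 (53.5 ± 4.40) stood first and within their spread of each other.

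**Figure D2:**
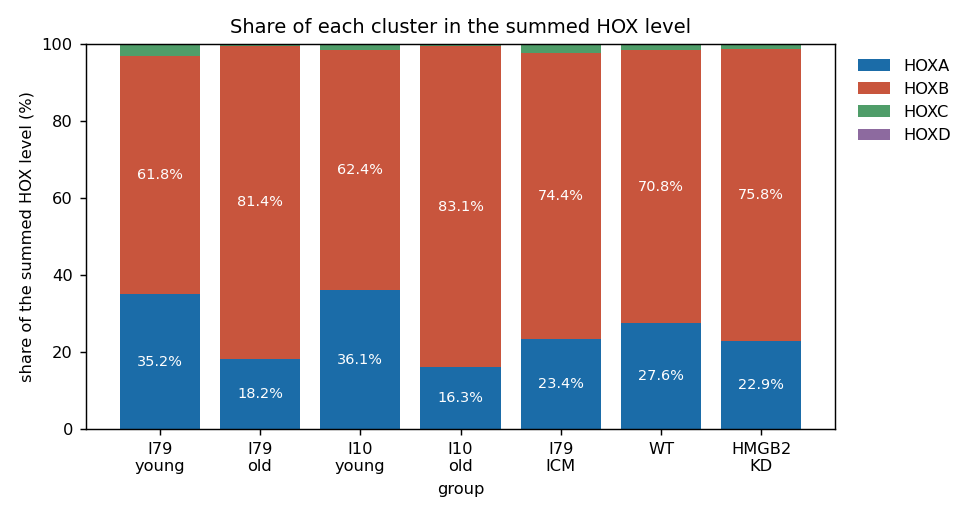
Share of each cluster in the summed level of all HOX genes (y axis, %) in the 7 groups (x axis), as stacked bars. HOXB holds 61.8% and 62.4% in the young columns and 81.4% and 83.1% in the old ones, and HOXD cannot be seen. Old and young bars are from TPM and the others from counts per kilobase of exon, so the kinds are not compared.

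The summed level of the 39 genes was 314 in I79 young and 257 in I79 old, and 337 in I10 young and 201 in I10 old. HOXA supplied 35.2% of it in I79 young and 18.2% in I79 old, and 36.1% in I10 young and 16.3% in I10 old. HOXC went from 3.04% to 0.407% in I79 and from 1.46% to 0.595% in I10. In I79 ICM the shares were 23.4% for HOXA and 74.4% for HOXB, in WT 27.6% and 70.8%, and in HMGB2 KD 22.9% and 75.8%. These shares rest on the length of all exons and not on TPM. They depend on that length and are not compared with the shares of the old and young columns.

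Old was compared with young to ask which HOX genes change as fibroblasts are passaged into senescence. Among members that passed the filter, most of HOXA and all of HOXC were lower in the old columns, and no HOXB member passed the test. With the isolate as a covariate, 17 members could be tested and 2 were called, HOXA3 and HOXA5, both lower. A call needed an adjusted p under 0.01 together with a log2 fold change past 0.6 either way. Of all 15116 genes tested, 9.39% were called, 3.74% lower and 5.66% higher. At an adjusted p under 0.05 with the same fold, 7 members were lower and none higher, against 12.1% of all genes lower and 13.5% higher at that threshold (25.5% in all). The 7 were HOXA3, HOXA5, HOXA6, HOXA7, HOXC4, HOXC6 and HOXC8. All p-values of this fit are from edgeR's quasi-likelihood test, with the 2 isolates as replicates and 1 residual degree of freedom.

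Medians of the log2 fold change were -1.65 over the 7 HOXA genes tested, 0.05 over the 7 HOXB genes and -2.66 over the 3 HOXC genes, and -0.01 over all genes tested. The other 22 members were too low for the filter. Members that pass such a filter do so through the group where they are high, so the 17 do not stand for all 39.

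HOXA5, a regulator of lung and airway mesenchyme, stood at 50.95 and 18.8 CPM in young and old I79 and at 55.5 and 13.9 CPM in young and old I10. Both young columns lay above both old ones. It fell by 1.72 on the log2 scale (SE 0.18, edgeR adjusted p = 0.00593), and 36.95% and 25.0% of its CPM remained in I79 and I10. Nearly all its reads came from 1 transcript, HOXA5-201, with 92.2% and 89.2% of its TPM in young and old I79 and 90.0% and 100% in young and old I10.

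HOXA3, which acts in the pharyngeal arches and their glands, stood at 22.9 and 8.73 CPM in young and old I79 and at 24.7 and 6.58 CPM in young and old I10. It fell by 1.65 (SE 0.19, edgeR adjusted p = 0.0072), with 38.1% and 26.7% remaining. Antisense genes covered 17.3% of its exon bases. HOXA3-201 held 80.2% and 77.5% of its TPM in young and old I79 and 63.6% and 47.8% in young and old I10. In old I10, HOXA3-204, a transcript of 503 bases, held 23.7% of the TPM on 4.96 reads.

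HOXA6 and HOXA7, the 5′ neighbours of HOXA5 in the used part of the cluster, passed at the looser threshold. HOXA6 had 53 and 12 counts in young and old I79 and 62 and 8 in young and old I10, a log2 fold change of -2.60 (SE 0.39, edgeR adjusted p = 0.0123). HOXA7 had 104, 20, 91 and 34 counts in the same order, a log2 fold change of -1.94 (SE 0.41, edgeR adjusted p = 0.0264). HOXA7-201 held all of its TPM in the young columns and 53.6% and 51.6% in old I79 and I10. In reads it held 17.5 of the 20 counts in old I79 and 29.4 of the 34 in old I10. The lower TPM shares thus rest on few reads of other transcripts. Their antisense partner HOXA-AS3 had 22, 8, 39 and 8 counts, a log2 fold change of -1.94 (edgeR adjusted p = 0.0346), so it was lower in the same columns, and its part in the counts of both genes was not tested.

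The fall did not run evenly along HOXA. HOXA4 lies between HOXA3 and HOXA5, and its CPM was 6.08 and 8.19 in young and old I79 and 6.31 and 5.64 in young and old I10, which overlap (log2 fold change 0.13, SE 0.24, edgeR adjusted p = 0.691). The readthrough gene that shares letters of its main transcript had 6, 2, 11 and 2 counts in these columns, and HOXA4 had 95, 151, 121 and 102. Both are estimated counts, so how reads of the shared letters were assigned cannot be seen. The part of the readthrough gene in the HOXA4 values was not tested. Another transcript, HOXA4-201, held 70.3 counts in I79 old and 0 in the other old and young columns. HOXA2, which patterns the second pharyngeal arch, had 104 and 89 counts in I79 and 168 and 35 in I10, with a log2 fold change of -1.27 that did not pass (edgeR adjusted p = 0.0939).

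**Figure D3:**
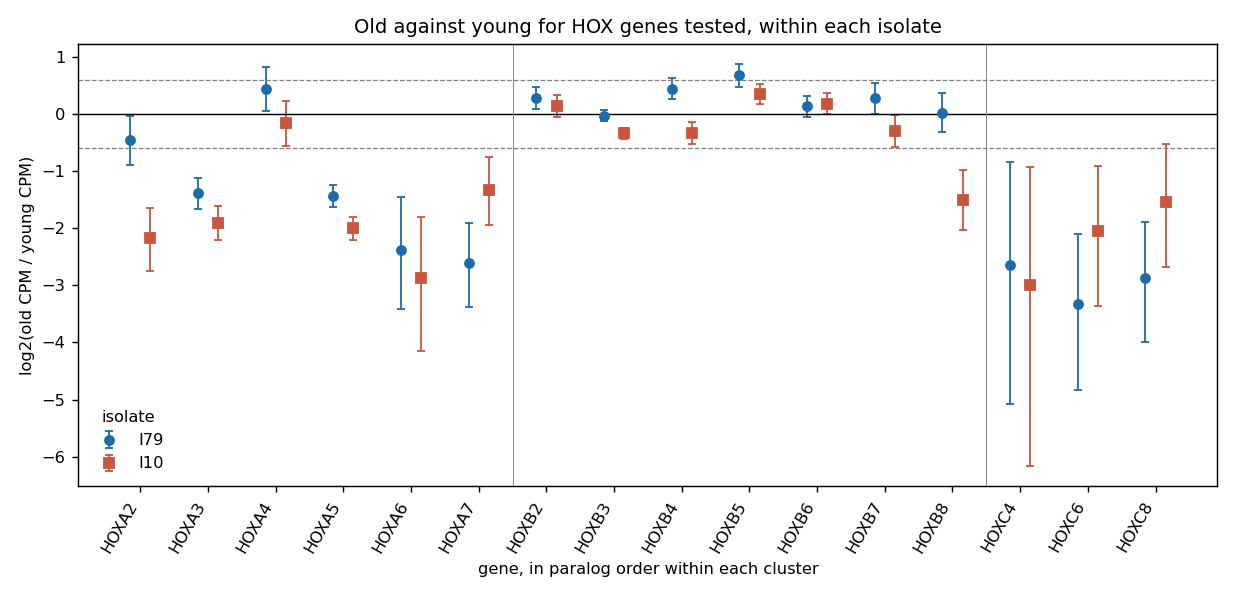
Log2 ratio of old CPM to young CPM (y axis) for 16 of the 17 HOX genes tested (x axis, in paralog order within HOXA, HOXB and HOXC), in isolate I79 (circles) and I10 (squares). Bars are 95% Clopper-Pearson intervals of the counts and dashed lines mark 0.6 each way. HOXA3, HOXA5, HOXA6, HOXA7 and all 3 HOXC genes lie below -0.6 in both isolates, and HOXB2 to HOXB7 lie between -0.34 and 0.67.

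In HOXC, all 3 genes tested were lower, at low counts. Their counts were highest in the young columns, which helped them pass the filter, so these 3 do not stand for the whole cluster. HOXC8, which acts in the thoracic skeleton, had 62 and 10 counts in young and old I79 and 34 and 11 in young and old I10 (log2 fold change -2.21, SE 0.49, edgeR adjusted p = 0.0306). HOXC6 had 51, 6, 35 and 8 counts in that order (log2 fold change -2.66, SE 0.52, edgeR adjusted p = 0.022). HOXC4 had 16, 3, 17 and 2 counts (log2 fold change -2.75, SE 0.60, edgeR adjusted p = 0.0286). The groups did not overlap for any of the 3, but the share of all genes without such overlap was not counted. HOXC4 and HOXC6 share exons with each other and with a readthrough gene, over 17.5% and 16.1% of their exon bases. HOXC9 had 12, 0, 5 and 1 counts and was below the filter.

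No HOXB member was called. HOXB3 stood at 105.5 and 103 CPM in young and old I79 and at 114 and 90.4 CPM in young and old I10 (log2 fold change -0.19, SE 0.12, edgeR adjusted p = 0.285). HOXB5, the paralog of HOXA5, stood at 20.9, 33.3, 26.3 and 33.5 CPM, both old columns above both young ones. Its log2 fold change of 0.51 (SE 0.14, edgeR adjusted p = 0.0508) was under the fold threshold. HOXB2, HOXB4, HOXB6 and HOXB7 had log2 fold changes between -0.01 and 0.20, with edgeR adjusted p from 0.271 to 0.967, and all 4 stood below 0 with plain library totals. HOXB3 was spread over many transcripts, and its main one, HOXB3-205, held 42.6% of its TPM in I79 young and 33.6% in I79 old.

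HOXB8, the most 5′ used gene of HOXB, had 133 and 159 counts in I79 young and old and 126 and 42 in I10 young and old. I10 old stood apart from the other columns. Over both isolates its log2 fold change was -0.67 (SE 0.40, edgeR adjusted p = 0.257). HOXB8-203, a shorter transcript, held 41.1%, 38.3% and 34.6% of its TPM in I79 young, I79 old and I10 young and was at 0 in I10 old.

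Within an isolate there was 1 column an age and no test. In I79, 7 of 17 members were lower by over 0.6 on the log2 scale and 1 was higher, HOXB5 at 0.67, against 19.6% and 21.6% of all genes tested. In I10, 9 of 17 were lower by over 0.6 and none higher, against 18.8% and 18.6%. The 7 were HOXA3, HOXA5, HOXA6, HOXA7, HOXC4, HOXC6 and HOXC8, and I10 added HOXA2 and HOXB8. HOXA2 was at -0.46 (95% counting interval -0.89 to -0.04) in I79 and at -2.18 (-2.75 to -1.65) in I10. HOXB8 was at 0.02 (-0.32 to 0.36) in I79 and at -1.50 (-2.04 to -0.99) in I10. HOXA7 went the other way round, at -2.62 (-3.39 to -1.92) in I79 and -1.34 (-1.95 to -0.75) in I10. These intervals cover counting error only, and the difference between isolates was not tested.

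I10 was compared with I79 over both ages to ask whether the isolates carry the same HOX pattern. Here the ages are the replicates, with 1 residual degree of freedom. A difference between isolates that depends on age goes into the error, as for HOXB8 at -0.37 young and -1.89 old. The absence of calls therefore does not show that the isolates are alike. No member of 17 was called, and none of the 15116 genes was (0%), with 576 genes at an unadjusted p under 0.05 in edgeR, 1.85% of all lower and 1.96% higher. HOXB8 was the 1 member among them. DESeq2 called 12 genes and no HOX gene in this comparison. HOXB8 was lower in I10 (log2 fold change -1.08, SE 0.41, edgeR adjusted p = 0.959). In the young columns, the members past 0.6 were HOXC6 at -0.84 and HOXC8 at -1.16, both lower in I10, against 3.3% of all genes below -0.6 and 4.86% above 0.6. In the old columns HOXA2 (-1.32) and HOXB8 (-1.89) were lower in I10 and HOXA7 (0.79) higher, against 9.12% and 8% of all genes. In both isolates 17 members reached a level of 1 when young.

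HMGB2 KD was compared with WT to ask what the loss of 1 chromatin protein does to these genes. No HOX gene of the 18 tested was called at an adjusted p under 0.01 in edgeR, against 5.2% of the 15338 genes tested (2.34% lower and 2.86% higher). At an unadjusted p under 0.05 there were 3, HOXA2 and HOXA7 lower and HOXB2 higher, against 10.9% and 13% of all genes lower and higher. At an adjusted p under 0.05 with the fold threshold, HOXA7 alone was lower, against 3.44% of all genes lower and 4.3% higher (7.74% in all). DESeq2 called 1 HOX gene, HOXA7.

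HOXA7, a central gene of the trunk, stood at 6.92 and 4.15 CPM in the WT libraries and fewer in the knockdown libraries, 2.65 and 2.38. Both knockdown libraries lay below both WT libraries, which themselves stood apart (5.54 ± 1.96 and 2.52 ± 0.189 CPM, SD, n = 2). Its log2 fold change was -1.14 (SE 0.29, edgeR adjusted p = 0.0206). HOXA-AS3, which covers much of HOXA7, had a log2 fold change of -0.11 (edgeR adjusted p = 0.939) between these groups. Without WT replicate 2 HOXA7 was called, at -1.46, and without WT replicate 1 it stood at -0.72 (edgeR adjusted p = 0.412).

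HOXB2, which acts in the hindbrain and in haematopoietic cells, stood at 39.6 and 37.2 CPM in WT against 46.9 and 63.3 with the knockdown. The libraries did not overlap, and the knockdown pair stood far apart. Its log2 fold change was 0.52 (SE 0.15, edgeR adjusted p = 0.0395), under the fold threshold, and it was called without HMGB2 KD replicate 1, at 0.71. HOXA2 stood at 3.01 and 3.16 CPM in WT against 1.39 and 2.23 with the knockdown, at a log2 fold change of -0.76 (SE 0.33, edgeR adjusted p = 0.167).

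**Figure D4:**
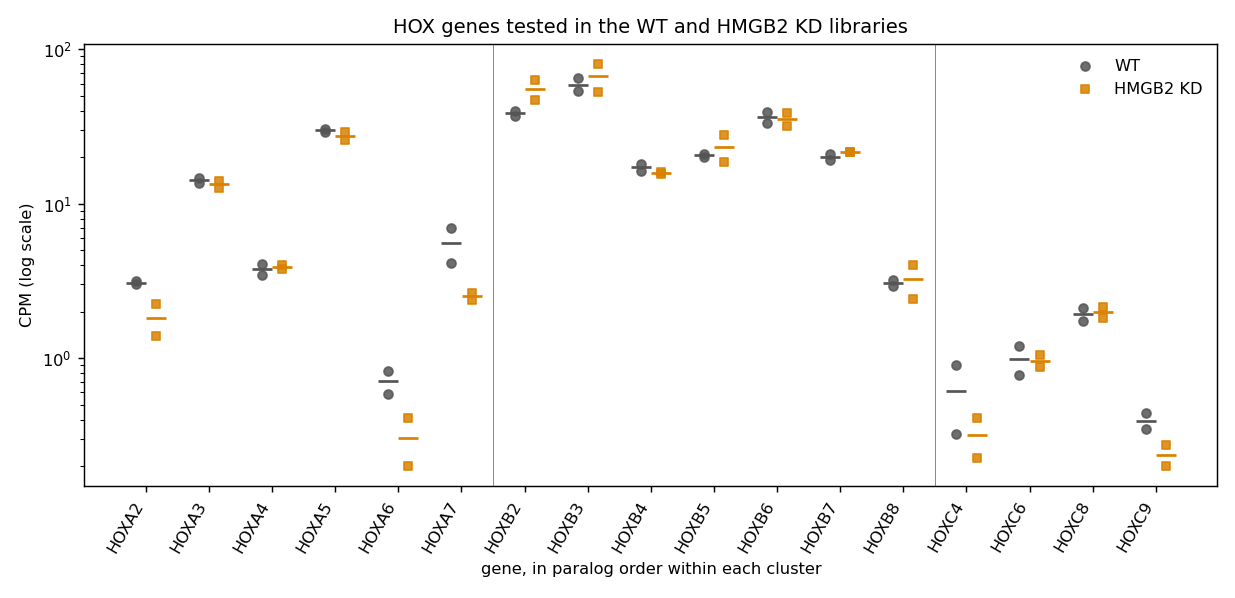
CPM (y axis, log scale) of 17 of the 18 HOX genes tested in the WT (circles) and HMGB2 KD (squares) libraries, with 1 point a library and a short line at the mean of each pair. HOXA2, HOXA6 and HOXA7 lie lower in both knockdown libraries and HOXB2 higher, while most other members overlap or nearly so.

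HOXA5 and HOXA3, both called with age, were not called here. HOXA5 stood at 29.2 and 30.6 CPM in WT against 29.0 and 26.0 with the knockdown (log2 fold change -0.12, SE 0.14, edgeR adjusted p = 0.66). HOXA3 stood at 13.6 and 14.7 CPM in WT against 12.6 and 14.1 with the knockdown (log2 fold change -0.08, SE 0.15, edgeR adjusted p = 0.808). HOXB3 stood at 53.4 and 64.7 CPM in WT against 53.2 and 80.2 with the knockdown (log2 fold change 0.17, SE 0.17, edgeR adjusted p = 0.61). HOXC8 had 60 and 79 counts in WT and 67 and 85 in HMGB2 KD, and HOXC6 had 41 and 29 and then 32 and 42. HOXA6, HOXC4 and HOXC9 had log2 fold changes of -1.22, -0.94 and -0.72 at no more than 31 counts a library, with SE of 0.63, 0.69 and 0.71.

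Counted by library, 6 of the 18 members were lower in both HMGB2 KD libraries than in both WT libraries (HOXA2, HOXA5, HOXA6, HOXA7, HOXB4 and HOXC9) and 2 were higher (HOXB2 and HOXB7). In the other 10 the libraries overlapped. Of all genes, 26.4% were lower and 27.4% higher in this way, 53.8% in all, against 8 of 18 HOX genes.

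I79 ICM was set beside I79 young to see where the HOX genes lay after the compound. The 2 kinds of table were counted in different ways, so no test was run, and the ratio of WT to I79 young, made likewise, served as background. Over 13839 shared genes, 12 of 17 HOX genes were lower in ICM than in I79 young by over 0.6 on the log2 scale and 1 was higher. Of all genes, 29.8% were lower and 29.5% higher by that much. In WT, with no ICM, 10 of the 17 were lower and 1 higher, against 22.1% and 20.9%. Both ratios share I79 young. HOXA7 and HOXB4 lay at -1.20 and -2.48 in ICM and at -0.38 and -0.58 in WT on the log2 scale.

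Against WT, 7 of 17 were lower in ICM by over 0.6 and 1 was higher, with a median of -0.12 (28.3% and 29.6% of all genes). HOXA3 had 3.03 and 3.95 CPM over shared genes in the ICM libraries, 26.1 in I79 young and 14.8 in WT replicate 1. HOXA2 had 1.32 and 0.376 CPM in ICM, 7.59 in I79 young and 3.26 and 3.43 in WT. HOXB4, which acts in blood stem cells, had 4.22 and 5.76 CPM in ICM, 27.8 in I79 young and 19.6 and 17.6 in WT. These 3 genes were lower in both ICM libraries than in all other columns named. So was HOXB3, with 32.3 and 33.9 CPM in ICM, 120 in I79 young and 57.9 and 70.2 in WT.

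HOXA5 and the HOXC genes lay elsewhere in the order. HOXA5 had 18.6 and 22.2 CPM in ICM, close to 19.1 in I79 old, with 58.1 in I79 young and 31.7 and 33.2 in WT. HOXC8 had 2.02 and 2.45 CPM in ICM, 1.90 and 2.29 in WT, 4.52 in I79 young and 0.551 in I79 old. Against I79 old, 5 of 17 HOX genes were higher and 6 lower in ICM by over 0.6 (33.4% and 25.6% of all genes). The 3 HOXC genes were among the higher, by 0.80 to 1.87 on the log2 scale, at low counts. HOXC4 had 5 and 3.33 counts in ICM and 3 in I79 old, HOXC6 14 and 17.3 against 6, and HOXC8 26 and 26 against 10. Genes were kept by their mean count over I79 young, ICM and WT, without I79 old. Members low in I79 old could thus pass through the other groups, so these 3 do not stand for their cluster. HOXB5 had 20.2 and 24.8 CPM in ICM, 21.9 and 22.8 in WT and 23.8 in I79 young.

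**Figure D5:**
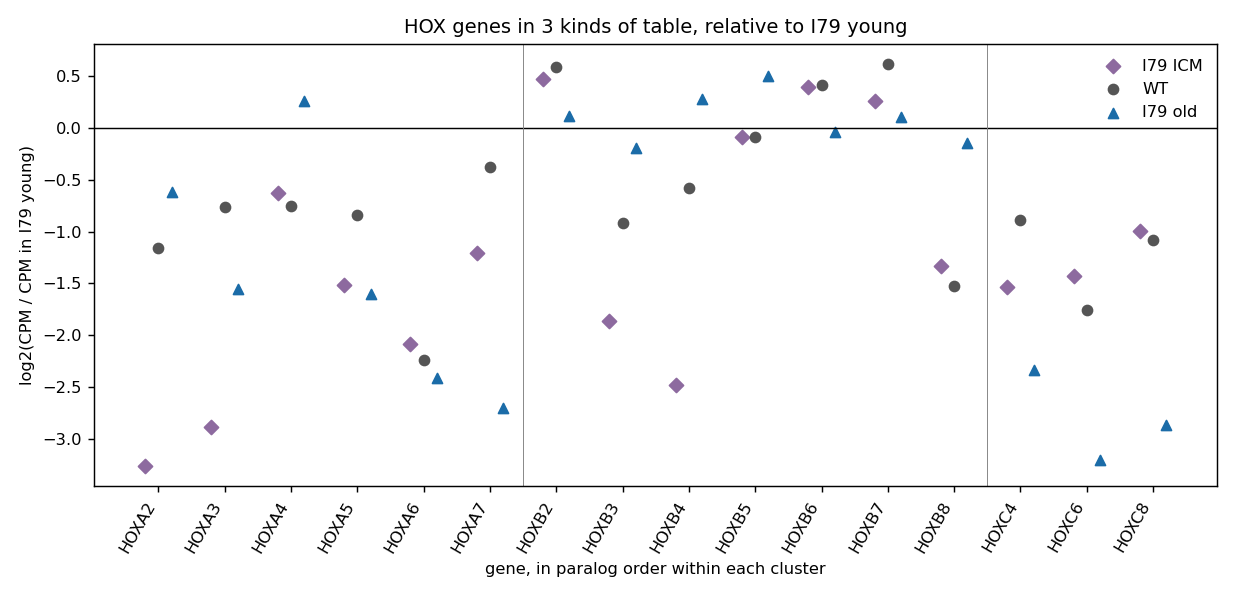
Log2 ratio to I79 young (y axis) of 16 HOX genes (x axis) in I79 ICM (diamonds), WT (circles) and I79 old (triangles), each from CPM over shared genes. ICM and WT lie close for HOXA6, HOXB5, HOXB6 and HOXC8, and ICM lies far below WT for HOXA2, HOXA3 and HOXB4.

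Genes that work with or on the HOX clusters were counted from fixed lists. Of 9 TALE homeodomain genes, whose proteins bind DNA together with HOX proteins, 2 fell between old and young and none rose. Of all genes tested, 3.74% fell and 5.66% rose in that comparison, and 2.34% fell and 2.86% rose in HMGB2 KD, which is the background for this and the following lists. PKNOX2 fell by 2.13 (SE 0.26, edgeR adjusted p = 0.00788). The list's median was 0.09. In HMGB2 KD none of the 9 was called, at a median of 0.27.

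Of 27 Polycomb genes, 4 rose and 2 fell between old and young (5.66% and 3.74% of all genes), at a median of 0.03. EZH2, the main methyltransferase of the repressive mark on silent HOX genes, fell by 2.29 (SE 0.18, edgeR adjusted p = 0.00434), from 32.4 and 32.0 CPM young to 5.59 and 7.68 old. CBX2, which reads that mark, fell by 3.03. CBX7, another reader, rose by 2.48 (SE 0.22, edgeR adjusted p = 0.00484), and EZH1, PCGF5 and PHF1 rose by 0.93, 1.16 and 1.61. In HMGB2 KD, 1 of 25 was called, CBX6, which fell by 0.76.

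Of 21 activators and boundary factors, 1 fell between old and young, the cohesin subunit SMC1A, by 1.16 (SE 0.10), at a list median of -0.31, and none was called in HMGB2 KD. Of 12 retinoic acid genes tested of 18, 2 fell and 2 rose (3.74% and 5.66% of all genes). CRABP2, which carries retinoic acid in the cell, had a log2 fold change of -3.07. RDH10, which makes the aldehyde precursor, rose by 1.21, and CYP26B1, which breaks retinoic acid down, rose from 0 and 1 counts in the young columns. The list's median was -0.01, and none of 10 was called in HMGB2 KD.

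Of 5 noncoding genes of the clusters tested between old and young, none was called, with HOTAIRM1 at -0.39, HOXA-AS2 at -0.52, HOXA-AS3 at -1.94, HOXB-AS3 at -0.12 and HOXB-AS1 at 1.31 on the log2 scale. HOXB-AS1 had 21 and 25 counts in the young columns and 56 and 64 in the old ones (edgeR adjusted p = 0.0418), next to HOXB2 and HOXB3, which were not called. None of 6 was called in HMGB2 KD. Of 14 flanking protein-coding genes tested of 22, 3 fell (HNRNPA3 near HOXD, CBX5 near HOXC and CBX1 near HOXB) and CALCOCO1, near HOXC, rose between old and young. CBX1 rose by 0.61 in HMGB2 KD. Of 15 lung mesenchyme transcription factors, TBX4 fell between old and young (log2 fold change -5.70, SE 0.37, edgeR adjusted p = 0.00364), from 127 and 245 counts to 4 and 3. In HMGB2 KD, TCF21 fell by 1.26 while FOXL1 and GATA6 rose by 0.70 and 1.39, all past the adjusted threshold. None of the lists held a gene called between the isolates.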

How the data were processed

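Poly(A)-selected RNA of IMR90 was sequenced after TruSeq preparation. Submitters' processing notes name GRCh37, STAR 2.6.0c, featureCounts and DESeq2. For the old and young groups the authors deposited estimated (expected) counts and TPM per transcript, 1 table a group, treated as the authors' pooled value. The WT and knockdown files as deposited hold raw counts for each gene, and their summary rows (16.9% to 18.0% of totals) stayed out. For ICM the deposited values are estimated counts per gene and transcript region.

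Transcripts were summed per gene through GENCODE v44 lifted to GRCh37, which matched 97.7% of IDs, and rounded. edgeR 4.0.16 (R 4.3.3) gave quasi-likelihood tests with TMM scaling and the filterByExpr filter, adjusted by Benjamini-Hochberg over all genes tested. CPM of the tested comparisons used the same scaling. CPM over shared genes, given with the ICM ratios, used plain totals of those genes, so values of a column differ between the 2 scales. Calls needed an adjusted p below 0.01 with a log2 fold change past 0.6 either way, as in the study's methods. SE was the log2 fold change over the square root of F. ICM ratios used a prior count of 2 and genes with a mean of at least 10 counts over I79 young, ICM and WT. Counting intervals and limits cover counting error only, since reads carry no molecular identifiers. No replicate pair agreed within sampling noise (chi-square per degree of freedom of 2.10 or more). Scripts were tested on simulated data. By the rule for named genes, any member could be named, and full values went to those called, to the highest of each cluster in I79 young and WT, and to those past 1 on the log2 scale within an isolate with at least 20 counts. Listed genes were named where called, up to 4 each way; HOXA-AS3 and the other noncoding genes were named after their values were seen. Members and lists were chosen with earlier results of these data known. Some members, listed genes and sequences are not reported here.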

Additional observations from a re-analysis of the deposited data

Results flagged for a closer look

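HOXB4 and HOXB7 had log2 ratios of old to young of opposite sign in the 2 isolates, with counting intervals clear of 0 in each. HOXB4 had 381 counts in I79 young and 611 in I79 old, a log2 ratio of 0.44 (95% counting interval 0.26 to 0.63), and 532 and 397 counts in I10, a ratio of -0.34 (-0.53 to -0.15). The change in I79 minus that in I10 was 0.78. HOXB7 had 194 and 277 counts in I79 (0.28, interval 0.01 to 0.55) and 256 and 196 in I10 (-0.30, interval -0.58 to -0.03), a difference of 0.58. With plain library totals, an alternative chosen after seeing the data, HOXB4 stood at 0.28 (0.09 to 0.47) in I79 and at -0.60 (-0.79 to -0.41) in I10, while the interval of HOXB7 in I79 included 0 (0.11, -0.16 to 0.38). These intervals cover counting error only, and libraries of a group differed by more than that where there were 2 to compare (chi-square per degree of freedom of 24.7 in WT and 37.6 in HMGB2 KD). With 1 column for each isolate and age, neither difference was tested.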

How the results depend on the processing

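In HMGB2 KD against WT, where no HOX gene was called, 1 was called with 1 RUVs factor, with DESeq2, with no filter on low counts, with the replicate block and at an adjusted p under 0.05, in each case HOXA7, and between 0 and 1 when a library was left out. The replicate numbers showed a correlation of deviations of 0.124 over 2 pairs, so the block stands only here. Between old and young, 2 HOX genes were called (9.39% of all genes), against 7 at an adjusted p under 0.05 (25.5% of all genes). With no filter 8 HOX genes were called, and with plain library totals 6. The share of all genes called is not given for these other settings in either comparison. These counts therefore cannot show a change particular to HOX genes. Plain totals moved the median of all genes by -0.211 there, and HOXA4 (-0.0758), HOXB2 (-0.0067), HOXB4 (-0.158) and HOXB6 (-0.0562) changed sign, as did HOXA4 with counts from TPM (-0.0804) and HOXB7 with no isolate covariate (0.0045). Between isolates, HOXA3 with counts from TPM (0.0672) and HOXA7 with no age covariate (-0.22) changed sign. With WT as control, 7 HOX genes lay lower in ICM rather than 12. At a minimum level of 5, 8 members remained above it in I10 old, 10 in I79 ICM and 10 in HMGB2 KD.

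In HMGB2 KD some uncalled genes changed sign, HOXA4 (-0.0211) and HOXC8 (-0.0319) with plain totals and HOXB8 (-0.0672) and HOXC8 (-0.0127) with RUVs. Leaving out a library gave log2 fold changes from -0.0761 to 0.17 for HOXA4, -0.15 to 0.43 for HOXB3, -0.13 to 0.42 for HOXB5, -0.19 to 0.0742 for HOXB6, -0.33 to 0.39 for HOXB8, -0.32 to 0.31 for HOXC6 and -0.0962 to 0.17 for HOXC8. The cause of these changes was not tested. The 3 HOXC genes tested between old and young rest on 2 to 62 counts a column.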
